A study of Mus musculus with 15 samples.

Results

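The genes described here are Tmem119, Olfml3 and 7 other genes held to mark homeostatic microglia, the resident macrophages of the brain in their resting state. The 9 genes are Tmem119, Olfml3, P2ry12, P2ry13, Siglech, Sall1, Gpr34, Fcrls and Cst3, out of 55450 genes in the annotation, and they were followed through 15 RNA-seq libraries. The set was chosen by measured values. Tmem119 and Olfml3 were set apart because they were higher in glioma than in healthy brain while the other genes were lower, so the levels in those groups are given as a description with no test. The study transplanted GL261, a mouse glioma cell line, into C57BL/6 mice and injected B20.4.1.1, a monoclonal antibody that blocks VEGF-A, every 3 days from day 10 after implantation until the endpoint, with doses of 50, 100 and 200 µg beside no antibody (0 µg). VEGF-A is the main growth signal for blood vessels. Each of the 5 groups has 3 libraries: untreated tumor (0 µg), tumor at 50, 100 and 200 µg, and healthy brain without tumor. RNA was total RNA of whole perfused tissue, and the labels name no sorted cells, no deleted gene and no vehicle or isotype antibody for the untreated tumors. A level in such tissue mixes every cell type present, and fewer cells of a type cannot be told apart from less RNA per cell.

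Microglia arise from yolk sac progenitors and keep their identity through signals of the brain, among them TGF-beta and the CSF1 receptor ligands. Their resting state is read from a set of genes that bone marrow-derived macrophages express little or not at all, and which microglia lose when they are activated or grown outside the brain. Tmem119, a membrane protein used to tell microglia from infiltrating macrophages, was first described in osteoblasts, and Olfml3 is a secreted matrix protein that is also made by vessel and connective tissue cells. P2ry12, P2ry13 and Gpr34 are G protein-coupled receptors, Siglech and Fcrls are surface receptors of the immunoglobulin superfamily, Sall1 is a transcription factor that maintains microglial identity, and Cst3 encodes cystatin C, a secreted inhibitor of cathepsins that astrocytes and choroid plexus make too.

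Levels are FPKM, fragments per kilobase of transcript scaled to the mapped fragments of the library, as the submitters' transcript assemblies list them, summed over the transcripts on a gene's exons and weighted by the share of exonic length that each covers. A listed 0 means that no transcript was assembled on the gene's exons, which can be a failed assembly as well as missing RNA. The libraries held 38194 to 89641 transcripts each. Replicate 3 at 50 µg stood apart, with 88071 transcripts against 38194 to 61599 in the other tumors, and results that rest on it are given with and without it. In 4 libraries, all of replicate number 3, a second label for the agent names another dose than the title or is missing. The groups here follow the titles. Read coverage per unit of FPKM, a relative measure of depth, was 6.10 to 22.2 in brain libraries, highest in brain replicate 3. It was 6.94 to 7.37 in untreated tumors and 7.15 to 8.42 at 50 µg. At 100 and 200 µg it was 8.90 to 9.23 and 9.45 to 13.2, above every library at 0 and 50 µg. Depth thus differed with dose. Its part in which genes are listed at 0, and in the dose differences, was not tested. Neuron markers summed to 3.27 to 10.5 FPKM in tumor libraries and to 1065 to 1442 FPKM in brain libraries.

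Tmem119 lies at chr5:113793729-113800516 (mm10, minus strand) and Cst3 at chr2:148871722-148875692 (minus). On chromosome 3, all on the minus strand, lie P2ry13 (chr3:59207892-59210882), P2ry12 (chr3:59216272-59262871), Fcrls (chr3:87250758-87263738) and Olfml3 (chr3:103722222-103738001). P2ry12 and P2ry13 are neighbors inside Med12l, a gene on whose exons P2ry12 holds 9 bp. Siglech lies at chr7:55768178-55778925 (plus), Sall1 at chr8:89027235-89044162 (minus) and Gpr34 at chrX:13632089-13640858 (plus) inside Cask. The assemblies list transcripts of these loci on both strands. In 87 of the 104 gene and library pairs with a value, 40 to 60% of it lay on the gene's own strand, over a whole range of 0 to 100%, with 23.1 to 57.1% for Olfml3. Reads of a gene and of an antisense partner cannot be separated.

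Promoters are shown for Olfml3, which was higher in tumor, and for 4 of the genes that were lower there, because these sequences let the opposite patterns be set beside the sequence at the start sites. RefSeq's promoter table (GRCm38.p6) held 7 of the 9 genes, with 250 bases before and 50 after each start. Capitals mark GAGGAA, the core bound by PU.1, the myeloid master factor encoded by Spi1, or its reverse complement TTCCTC. The 2 spellings do not overlap each other, and both strands were searched. The positions are chr3:103737952-103738251 for Olfml3, chr3:59262936-59263235 for P2ry12, chr3:59210833-59211132 for P2ry13, chr3:87263475-87263774 for Fcrls (all minus strand) and chr7:55767934-55768233 for Siglech (plus strand).
Olfml3: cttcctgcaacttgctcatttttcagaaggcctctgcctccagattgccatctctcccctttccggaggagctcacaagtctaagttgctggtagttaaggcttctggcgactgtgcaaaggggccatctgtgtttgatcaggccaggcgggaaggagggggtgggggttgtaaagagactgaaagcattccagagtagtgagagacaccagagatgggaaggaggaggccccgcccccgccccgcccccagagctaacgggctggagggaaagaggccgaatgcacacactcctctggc
P2ry12: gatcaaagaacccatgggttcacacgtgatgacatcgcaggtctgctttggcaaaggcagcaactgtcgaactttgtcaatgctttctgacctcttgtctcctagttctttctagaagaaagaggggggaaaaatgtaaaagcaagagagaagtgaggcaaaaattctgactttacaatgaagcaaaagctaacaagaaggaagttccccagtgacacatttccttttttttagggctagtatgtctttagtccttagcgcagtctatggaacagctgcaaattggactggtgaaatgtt
P2ry13: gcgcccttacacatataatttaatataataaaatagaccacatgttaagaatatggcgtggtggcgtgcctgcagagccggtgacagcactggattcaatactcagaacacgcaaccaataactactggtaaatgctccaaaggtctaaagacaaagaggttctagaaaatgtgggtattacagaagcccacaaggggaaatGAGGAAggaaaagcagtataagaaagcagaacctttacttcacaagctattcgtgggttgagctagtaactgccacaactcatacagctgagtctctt
Fcrls: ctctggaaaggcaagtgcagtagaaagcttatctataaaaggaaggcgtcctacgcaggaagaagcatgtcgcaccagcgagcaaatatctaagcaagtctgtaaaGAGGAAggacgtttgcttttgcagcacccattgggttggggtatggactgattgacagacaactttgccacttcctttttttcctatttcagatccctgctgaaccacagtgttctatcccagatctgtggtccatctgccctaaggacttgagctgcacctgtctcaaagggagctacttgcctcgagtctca
Siglech: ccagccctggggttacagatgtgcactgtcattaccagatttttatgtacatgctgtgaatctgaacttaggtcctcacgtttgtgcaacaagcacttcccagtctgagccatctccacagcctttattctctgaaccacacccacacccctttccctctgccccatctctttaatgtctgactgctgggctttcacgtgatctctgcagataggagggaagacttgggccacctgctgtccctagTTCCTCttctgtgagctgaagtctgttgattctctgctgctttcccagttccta
P2ry13, Fcrls, Siglech and Cst3 held 1 match each, first base at -48, -144, -4 and -230 from the start. The windows of P2ry12, Olfml3 and Sall1 did not hold these letters. Of all 32851 promoters of 300 bases in the table, 28.3% held a match, and a match is a description of the letters, not a binding site.

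Tmem119 was high in untreated tumors and at 50 µg, and low at 100 and 200 µg. The untreated libraries held 51.2, 91.0 and 157 FPKM, and those of the 50 µg dose 144, 118 and 61.6 FPKM. At 100 µg it stood at 8.0, 4.83 and 17.8 FPKM, at 200 µg at 3.95, 4.33 and 7.42 FPKM, and in healthy brain at 13.2, 12.2 and 8.17 FPKM. All 6 libraries at 100 and 200 µg lay below all 6 at 0 and 50 µg, a separation in this direction that 0.845% of the 14442 genes tested showed. Untreated tumors averaged 99.8 ± 53.5 FPKM and brain 11.2 ± 2.65 FPKM, while the means of the 50, 100 and 200 µg groups were 108 ± 42.3, 10.2 ± 6.78 and 5.24 ± 1.90 FPKM (SD, n = 3 each). In the order of the means, 50 µg and untreated tumors did not differ beyond their spread, nor did brain and 100 µg, whose values overlap. The 200 µg libraries lay just below the brain libraries, a separation whose share among all genes was not computed.

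**Figure D1:**
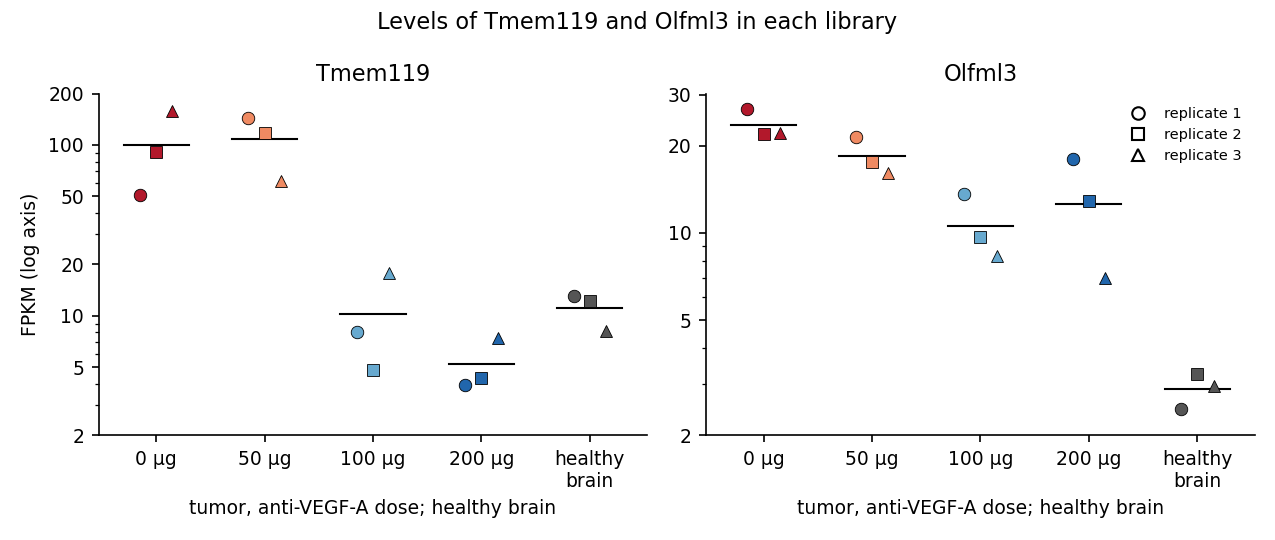
FPKM of Tmem119 (left) and Olfml3 (right) on log axes, for tumors at 0, 50, 100 and 200 µg and for healthy brain; each symbol is 1 library and each line a group mean. Tmem119 lies between 51.2 and 157 FPKM at 0 and 50 µg and between 3.95 and 17.8 FPKM at 100 and 200 µg. Olfml3 lies between 7.0 and 26.9 FPKM in tumors and between 2.47 and 3.26 FPKM in brain.

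The transcripts behind these values covered most of the gene. In all 15 libraries Tmem119 was assembled with at least 1 of its 3 annotated introns, and the longest transcript covered 91.8 to 96.7% of its exonic length. Between 47.4 and 55.2% of the value lay on the gene's own strand. The intervals that Cufflinks gives for its estimates ran from 2.73 to 19.6 FPKM over the libraries at 100 and 200 µg, against 47.5 to 165 FPKM over those at 0 and 50 µg, and the ranges did not overlap. The number of fragments per library is unknown, because the files give none.

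The dose comparisons asked what VEGF-A blockade did to these genes in the tumor. They were tested with limma on log2(FPKM + 1), with p-values adjusted over all 14442 genes by the method of Benjamini and Hochberg; a fold change on this scale understates that of low genes. A gene is called when the adjusted p is under 0.05. The untreated libraries that set Tmem119 and Olfml3 apart enter each of these comparisons, the 3 doses share them as reference, and lower values of both genes at 100 µg were known when the genes were chosen. The labels call the libraries of a group individual samples without naming separate mice, and p-values therefore cover only the variation among them.

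Tmem119 fell at 200 µg by a log2 difference of -3.91 (SE 0.51, limma adjusted p = 0.01), and its mean was 19.1-fold lower than in untreated tumors. These values were known when the gene was chosen, so the p-value, the call and the rank are descriptions. In rank, 17 of the 14442 genes had a lower estimate. Of the 6 member genes tested it was the 1 called, a count that the choice of the gene helped to fix. At this dose 2.99% of all 14442 genes were called, and 0.866% of all genes were called lower. At 100 µg the difference was -3.19 (SE 0.51), given with no test. At 50 µg it was 0.17 (SE 0.51, adjusted p = 0.962, 95% interval -0.96 to 1.30). Over the 12 tumor libraries its linear trend was -2.22 per 100 µg (SE 0.39), also given with no test, in a fit that called 7.89% of all genes and 2.61% lower.

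The direction at 100 and 200 µg was the same under every alternative tried, but the call at 200 µg rests on few libraries. The call at 200 µg ended without replicate 1 (-3.77, adjusted p = 0.0527 by limma) or replicate 2 (-3.82, 0.0503) at 200 µg, and with groups taken from the second label (-3.13, 0.101). The difference at 50 µg was 1.01 with groups from the second label and 0.92 (SE 0.33) without the 4 libraries of discordant label, both uncalled. The number of genes called at 200 µg ranged from 24, without replicate 1 or 2 at 200 µg, to 1223, without replicate 3 at 100 µg; it was 41 to 68 without 1 untreated library and 1013 without replicate 3 at 50 µg.

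Olfml3 shared the first part of this pattern and less of the second. It was at 26.9, 21.9 and 22.1 FPKM in untreated tumors, 21.4, 17.6 and 16.0 FPKM at 50 µg and 13.6, 9.67 and 8.29 FPKM at 100 µg. At 200 µg it was at 18.0, 12.9 and 7.0 FPKM, and in healthy brain at 2.47, 3.26 and 2.95 FPKM. At each dose all its libraries lay below all untreated ones, as did 5.98%, 7.12% and 17.3% of the 14442 genes at 50, 100 and 200 µg. Every untreated library lay above every brain library, as did 37.2% of the 16089 genes tested. The treated libraries lay above brain too, a separation whose share among all genes was not computed. Group means were 23.6 ± 2.82 FPKM untreated, 18.4 ± 2.76 at 50 µg, 10.5 ± 2.77 at 100 µg, 12.6 ± 5.48 at 200 µg and 2.89 ± 0.394 in brain (SD, n = 3 each). The means at 100 and 200 µg did not differ beyond their spread.

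Olfml3 was not called at 50 or 200 µg. The log2 differences were -0.35 at 50 µg (SE 0.30, adjusted p = 0.891 by limma) and -0.93 at 200 µg (SE 0.30, 0.101), and -1.11 at 100 µg (SE 0.30), given with no test. The unadjusted 95% interval at 200 µg was -1.59 to -0.28. It is a description, because the untreated libraries that set the gene apart enter it. The trend was -0.48 per 100 µg (SE 0.16), with no test. The annotated exons of Olfml3 span 6161 bp, and its longest assembled transcript covered 34.7 to 88.5% of them in tumors against 27.2 to 31.5% in brain, so the weighting by covered length enters its difference from brain, which was 2.66 on the log2 scale and 2.32 with plain sums of FPKM.

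Set against brain, the 9 genes split 2 against 7. Tmem119 was 8.92-fold and Olfml3 8.16-fold higher in untreated tumors than in brain, in every library, as were 37.2% of the 16089 genes tested. The other 7 genes were lower in every untreated library, as were 31.7% of genes. By adjusted p, 61.1% of all genes were called in this comparison. Since these values chose the genes, nothing further is read from the counts.

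**Figure D2:**
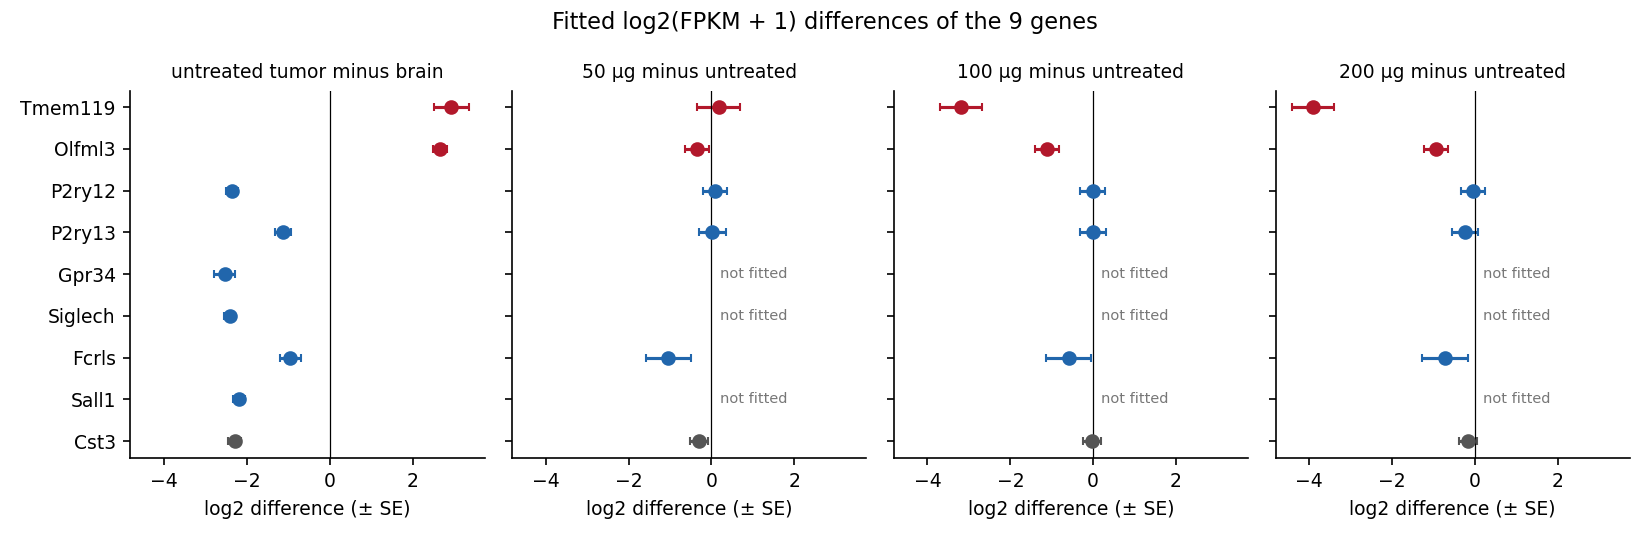
Log2 differences (± SE) of the 9 genes in untreated tumor minus healthy brain and in each dose minus untreated tumor, fitted with limma on log2(FPKM + 1); "not fitted" marks genes whose mean over the 12 tumor libraries was under 1 FPKM. Tmem119 and Olfml3 lie right of 0 against brain and left of it at 100 and 200 µg, while P2ry12 and P2ry13 lie left of 0 against brain and near 0 at each dose.

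P2ry12, the ADP receptor that steers microglial processes to injury, was at 1.79, 1.77 and 1.41 FPKM in untreated tumors and at 12.2, 12.1 and 13.8 FPKM in brain. Its mean of 1.66 ± 0.214 FPKM in untreated tumors, against 12.7 ± 0.936 FPKM in brain (SD, n = 3 each), made it 7.67-fold lower. Treated tumors held 0.918 to 3.42 FPKM, with the highest value in replicate 3 at 50 µg. No dose moved it past the test: the log2 differences were 0.09, -0.01 and -0.05 at 50, 100 and 200 µg (limma adjusted p = 0.968, 1 and 0.941). At 200 µg the 95% interval was -0.71 to 0.61. Without replicate 3 at 50 µg the estimate at that dose was -0.23, and with transcripts of 2 or more exons alone it was 0.58 at 200 µg, both uncalled.

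P2ry13, a related ADP receptor, was at 2.13, 1.45 and 1.19 FPKM in untreated tumors and at 3.93, 5.26 and 4.71 FPKM in brain. It was 2.92-fold lower in untreated tumors by the ratio of means. The doses gave log2 differences of 0.02, -0.01 and -0.24 (limma adjusted p = 0.995, 1 and 0.68). The interval at 200 µg, -0.94 to 0.47, includes differences in both directions.

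Gpr34, a receptor for lysophosphatidylserine, was listed at 0, 0 and 0.710 FPKM in untreated tumors, against 5.84, 5.23 and 6.88 FPKM in brain. It was listed at 1.70 FPKM in replicate 3 at 50 µg and at 0 in the 8 other treated libraries. Siglech was listed at 0 in 11 of the 12 tumor libraries and at 0.419 FPKM in replicate 3 at 50 µg, against 4.51, 4.23 and 4.25 FPKM in brain. Sall1 was listed at 0 in all 3 untreated tumors, at 1.17 FPKM in replicate 3 at 50 µg and at 0.0948 and 0.0563 FPKM in replicate 2 at 100 and at 200 µg, against 4.06, 3.39 and 3.22 FPKM in brain. All 3 genes were thus at or near 0 in tumors, apart from the library that stood apart, which held the highest value of each among tumors. Their tumor transcripts were fragments, covering at most 44.2% of Gpr34, 28.8% of Siglech and 24.1% of Sall1, and their means were too low for the dose comparisons.

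Fcrls, an Fc receptor-like protein, was lower than in brain in every untreated tumor, though by a smaller fold than P2ry13, while at 200 µg the means lay 3.87-fold (Fcrls) and 3.73-fold (P2ry13) below brain. It was at 3.65, 3.52 and 6.10 FPKM in untreated tumors, against 11, 10.3 and 6.95 FPKM in brain, 2.13-fold lower by the means. Treated tumors held 4.12, 2.37 and 0 FPKM at 50 µg, 2.50, 1.58 and 3.86 FPKM at 100 µg, and 3.39, 3.00 and 0.915 FPKM at 200 µg. The 200 µg libraries lay below all untreated ones, as did those of 17.3% of all genes. Those of Tmem119 and Olfml3 did so too, but both were chosen with their values known, so no count of members is read. The log2 differences were -1.04, -0.59 and -0.72 at 50, 100 and 200 µg (limma adjusted p = 0.889, 0.835 and 0.45). The listed 0 is in replicate 3 at 50 µg, without which the estimate at that dose was -0.35.

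Cst3, the most abundant of the 9 in brain, was at 157, 131 and 127 FPKM in untreated tumors, against 713, 681 and 650 FPKM in brain, 4.93-fold lower by the means. It stood at 104, 116 and 114 FPKM at 50 µg, at 158, 160 and 97.2 FPKM at 100 µg and at 126, 139 and 105 FPKM at 200 µg. The log2 differences of -0.30, -0.03 and -0.17 were not called (limma adjusted p = 0.889, 0.99 and 0.657). At 50 µg Cst3 and Olfml3 lay below all untreated libraries, where 5.98% of genes did so. At 100 µg Tmem119 and Olfml3 did, where 7.12% of genes did so, but their lower values at 100 µg were known when they were chosen. P2ry12, P2ry13, Fcrls and Cst3 were not called at 50 or 100 µg by limma, where 0% and 0.0831% of all genes were called and 579 and 1310 genes had an unadjusted p under 0.05. Their linear trends per 100 µg were -0.04, -0.13, -0.22 and -0.04, all uncalled (limma adjusted p = 0.873, 0.595, 0.63 and 0.855).

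**Figure D3:**
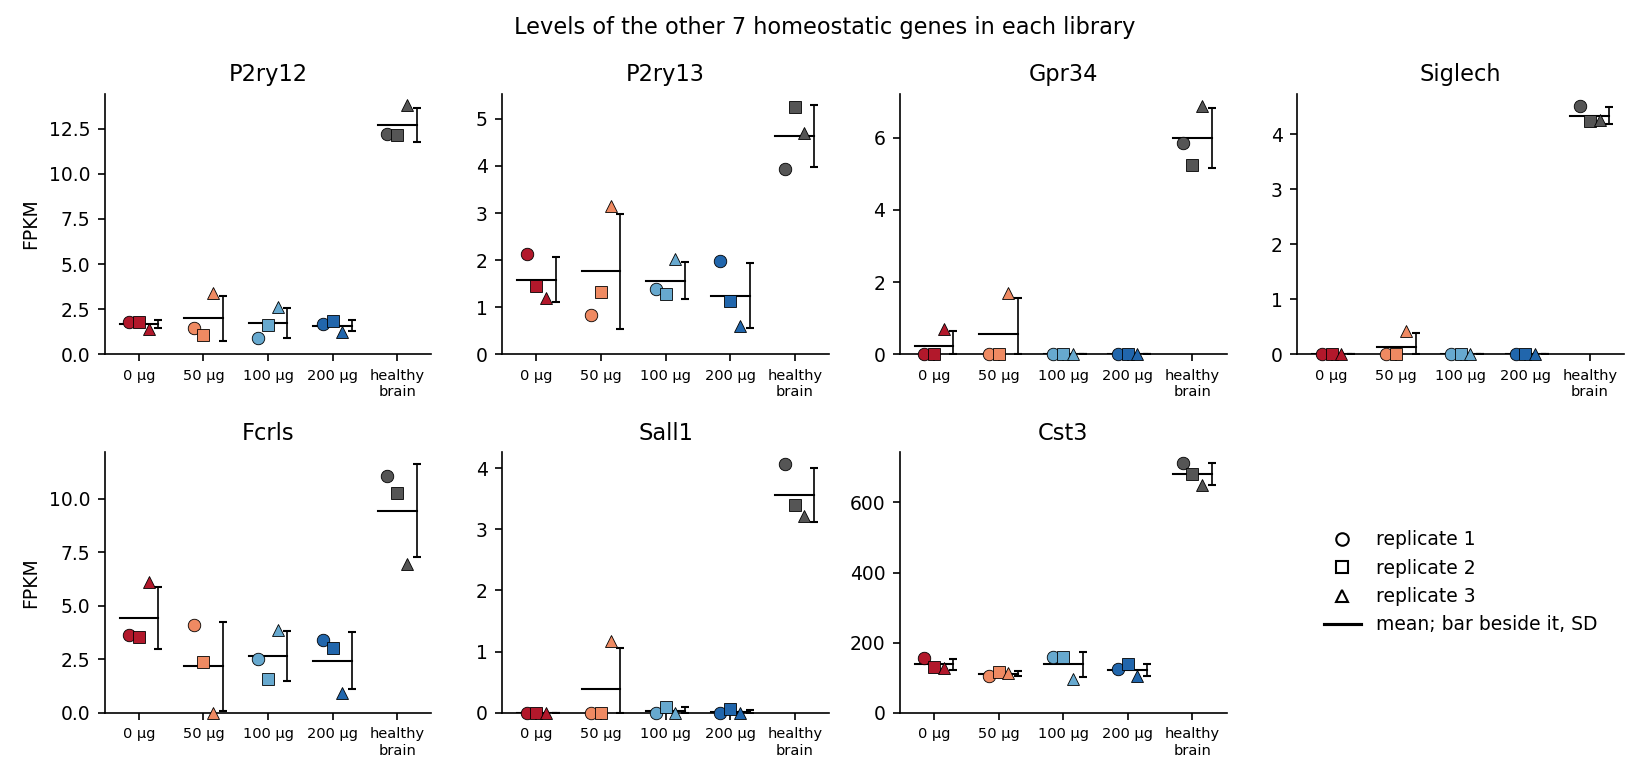
FPKM of P2ry12, P2ry13, Gpr34, Siglech, Fcrls, Sall1 and Cst3 for tumors at 0, 50, 100 and 200 µg and for healthy brain; symbols are libraries, lines are means and the bars beside them SD, cut off at 0. Untreated tumors lie below brain for all 7 genes, and replicate 3 at 50 µg holds the highest tumor value of P2ry12, P2ry13, Gpr34, Siglech and Sall1.

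The ratio of Tmem119 to P2ry12 within a library compares the 2 genes free of library scaling, as levels per transcript length. The untreated libraries gave ratios of 28.6, 51.3 and 111, and the 50 µg libraries 98.4, 111 and 18.0. In the 2 libraries with a ratio of 111, P2ry12 was low, at 1.41 and 1.06 FPKM, and was assembled with 0 spliced transcripts. An annotated intron of P2ry12 was assembled in 10 of the 12 tumor libraries. Ratios at 100 µg were 8.71, 2.93 and 6.82, those at 200 µg were 2.34, 2.37 and 6.05, and brain had 1.08, 1.01 and 0.592. Every tumor library lay above every brain library, which for untreated tumors follows from choosing a gene higher and a gene lower there. Ratios at 100 and 200 µg lay below those at 0 and 50 µg, as the levels of Tmem119 alone did. How many other gene pairs show such separations was not computed. Over the 12 tumor libraries, which share the pipeline and the dose groups, Tmem119 correlated with Olfml3 at r = 0.656 and with P2ry12 at 0.051, while P2ry12 correlated with P2ry13 at 0.723. Without replicate 3 at 50 µg these were 0.66, -0.11 and 0.504 over 11 libraries. Fcrls, listed at 0 in that library, correlated with Tmem119 at 0.216 and with Olfml3 at 0.412, and without it at 0.564 and 0.687. P2ry13 correlated with Tmem119 at 0.069 and with Olfml3 at 0.253, and without that library at -0.068 and 0.295. Siglech, Sall1 and Gpr34 correlated at 0.854 to 0.991 with that library; without it Siglech was listed at 0 throughout, and Sall1 and Gpr34 correlated at -0.144.

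**Figure D4:**
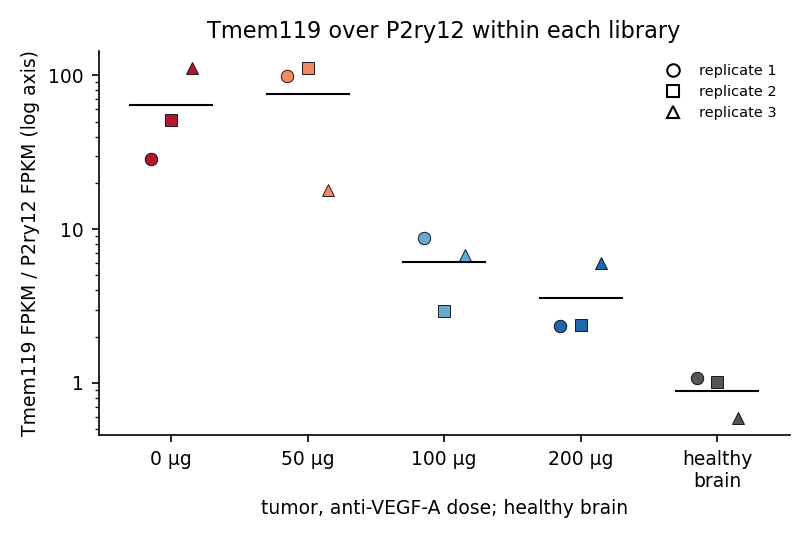
Tmem119 FPKM divided by P2ry12 FPKM in each library on a log axis, for tumors at 0, 50, 100 and 200 µg and for healthy brain; symbols are libraries and lines group means. The ratio lies between 18.0 and 111 at 0 and 50 µg, between 2.34 and 8.71 at 100 and 200 µg, and between 0.592 and 1.08 in brain.

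Other genes of microglia did not share one direction in untreated tumor against brain. Of 24 tested, 6 rose and 7 fell, with a median log2 difference of -0.06 where that of all genes was 0.12 and 32.8% of genes were called higher and 28.4% lower. The complement gene C1qa (1.81), the lysosomal protease Ctss (2.01) and the matrix gene Sparc (1.94) rose the most (limma adjusted p = 0.00903, 0.00227 and 0.000312). The transcription factor gene Mef2c (-4.57), which neurons express as well, Bin1 (-2.05) and Adgrg1 (-2.05) fell the most (8.11e-05, 0.000247 and 0.000537). The fractalkine receptor Cx3cr1 (-0.94, 0.0787) and the CSF1 receptor Csf1r (-0.21, 0.494) did not pass. Both are expressed by other macrophages too.

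At 200 µg 0 of 22 such genes were called by limma and 6 had an unadjusted p under 0.05, with 14 negative estimates and a median of -0.29, against 0.03 for all genes. C1qa, at 97.4, 94.0 and 50.8 FPKM at 200 µg and at 173, 92.7 and 230 FPKM in untreated tumors, had a log2 difference of -0.99 (adjusted p = 0.164 by limma). For C1qb the difference was -1.25 (adjusted p = 0.0642 by limma). None was called at 50 or 100 µg, where 0 had an unadjusted p under 0.05, with 18 and 16 negative estimates and medians of -0.22 and -0.07. Tmem119, chosen with its values known, was called at a dose at which these genes were not. Whether its difference exceeds theirs was not tested.

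The signals and regulators that maintain microglia moved both ways. Against brain 7 of 15 rose and 4 fell, with a median of 0.56. For this list and those below, 32.8% of all genes were called higher and 28.4% lower against brain. Irf8 (2.34) and Spi1 (1.74), transcription factors of myeloid cells, and the TGF-beta receptor Tgfbr2 (2.27) rose (limma adjusted p = 0.000197, 0.00476 and 0.000547). Smad3 (-1.52), which carries the TGF-beta signal to the nucleus, and the ligand Tgfb2 (-1.46) fell, along with Mef2c (0.000706 and 0.00129 for Smad3 and Tgfb2). The calls of Spi1, Tgfbr2, Smad3 and Tgfb2 ended with plain sums of FPKM.

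Smad3 was the 1 of 14 genes called at 200 µg, where 2.13% of all genes were called higher. Untreated tumors held 4.22, 2.78 and 4.29 FPKM of Smad3, the 100 µg group 8.32, 7.56 and 7.33 FPKM and the 200 µg group 10.1, 8.39 and 8.97 FPKM, a direction opposite to that of Tmem119. Its log2 difference at 200 µg was 1.11 (SE 0.17, limma adjusted p = 0.0151), and its trend was 0.62 per 100 µg (0.00973), in which 5.28% of genes were called higher. With plain sums of FPKM the difference at 200 µg was 0.35, uncalled, and that call also ended with transcripts of 2 or more exons alone, with groups from the second label, and without replicate 1 or replicate 2 at 200 µg. Spi1 was at 4.17, 4.11 and 1.85 FPKM at 200 µg and at 8.89, 5.58 and 14.5 FPKM in untreated tumors (log2 difference -1.25, adjusted p = 0.0885 by limma).

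Genes of activated microglia and macrophages were higher in untreated tumor, 7 of 11 against 2 lower, with a median of 2.67. Gpnmb (6.70), Lgals3 (5.77) and the receptor kinase Axl (4.19) rose the most, and Apoe (-1.82) and Lpl (-1.50) fell (limma adjusted p = 2.68e-05, 0.000348, 9.35e-06, 0.000251 and 0.00107). With plain sums of FPKM the calls of Lgals3, Apoe and Lpl ended. Of 10 genes of monocyte-derived cells 2 were too low to test and the other 8 rose, such as the arginase Arg1 (3.10) and the endotoxin coreceptor Cd14 (2.76). Their summed level was 75.9 to 95.0 FPKM in untreated tumors and 4.94 to 8.09 FPKM in brain. It was 41.8 to 115 FPKM at 200 µg, where limma called 0 of 10 and 0 had an unadjusted p under 0.05. At that dose 8 estimates were negative and 2 positive, with a median of -0.29 against 0.03 for all genes. Of the general leukocyte genes 4 of 9 rose, among them the integrin chain Itgb2 (1.97), and 1 fell, Coro1a (-1.81), and both calls ended with plain sums of FPKM. At 200 µg limma called 0 of 10 leukocyte genes and 1 had an unadjusted p under 0.05. Their estimates were negative in 8 and positive in 2, with a median of -0.39. Among the activation genes Spp1 rose with dose (0.52 per 100 µg, limma adjusted p = 0.0399), a call that ended under 10 of 21 alternatives.

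The partners of the receptors and of cystatin C were read as well. Of 4 other purinergic genes 2 rose against brain, the ATP channel P2rx7 (1.69) and the UDP receptor P2ry6 (1.26) (limma adjusted p = 0.000888 and 0.0271). The P2rx7 call ended with plain sums of FPKM, and the P2ry6 call under 7 of 14 alternatives. Of 10 cathepsins and cystatins 6 rose, led by the cystatins Cstb (4.73) and Cst6 (4.60) and by Ctsh (2.67), while Ctsk fell (-1.68). At 200 µg Cst6 fell (-1.06, limma adjusted p = 0.0478), a call that ended under 14 of 21 alternatives. Med12l, the host gene of P2ry12 and P2ry13, fell against brain too (-1.62, limma adjusted p = 0.000201), and its part in their lower levels was not tested.

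Since Tmem119 and Olfml3 are also made by osteoblast and connective tissue cells, and Cst3 by astrocytes and choroid plexus, genes of such cells were measured. Of 7 osteoblast and mesenchymal genes 1 rose against brain, Col1a1 (2.74), and 5 fell, and of 11 pericyte and fibroblast genes 3 rose and 3 fell. At 200 µg none of 3 and none of 11 were called by limma, with 1 and 3 at an unadjusted p under 0.05, while Pdgfra rose with dose (0.41 per 100 µg, adjusted p = 0.0201 by limma). Of 11 astrocyte genes 9 fell against brain and none rose, and of 5 choroid plexus genes 1 fell. At 200 µg the astrocyte glutamate transporter Slc1a3 rose (1.00, limma adjusted p = 0.0395) and the choroid plexus gene Ttr fell (-4.45, 0.0359), each lost under at least 7 of 21 alternatives. Of 9 border macrophage genes 3 could be tested against brain and rose, while 7 of 7 genes of dividing cells rose and of 8 endothelial genes 1 rose and 1 fell. No gene of these 3 lists was called at 200 µg by limma, with 1 border macrophage, 0 dividing cell and 2 endothelial genes at an unadjusted p under 0.05. The part of these cells in the levels of Tmem119, Olfml3 and Cst3 was not tested.

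Genes most like Tmem119 were sought among 8136 genes that overlap no other annotated exon, by Pearson correlation of log2(FPKM + 1) over the 12 tumor libraries. The 5 closest were Ift27 (r = 0.940), Zfp469 (0.939), Sgk2 (0.932), Smpdl3b (0.932) and Rhd (0.921), and the lowest r with any 1 library left out was 0.910. Ift27 encodes a part of the transport system of cilia, Sgk2 a kinase, Smpdl3b a phosphodiesterase of sphingolipid metabolism and Rhd a blood group protein. Rhd held 4.62, 7.67 and 6.07 FPKM in untreated tumors, 1.18, 2.01 and 1.74 FPKM at 100 µg and 1.58, 2.13 and 2.40 FPKM at 200 µg. Sgk2 held 0.839, 0.822 and 1.74 FPKM at 200 µg and 4.63, 4.77 and 3.99 FPKM in untreated tumors. The log2 differences of all 5 at 200 µg, which the choice by correlation with Tmem119 over these libraries fixes in direction, were -1.44 to -1.22 and are given with no test. None of them is a microglia gene of the lists used here. Genes whose exons overlap another gene could not appear, and which cells make these transcripts was not tested.

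**Figure D5:**
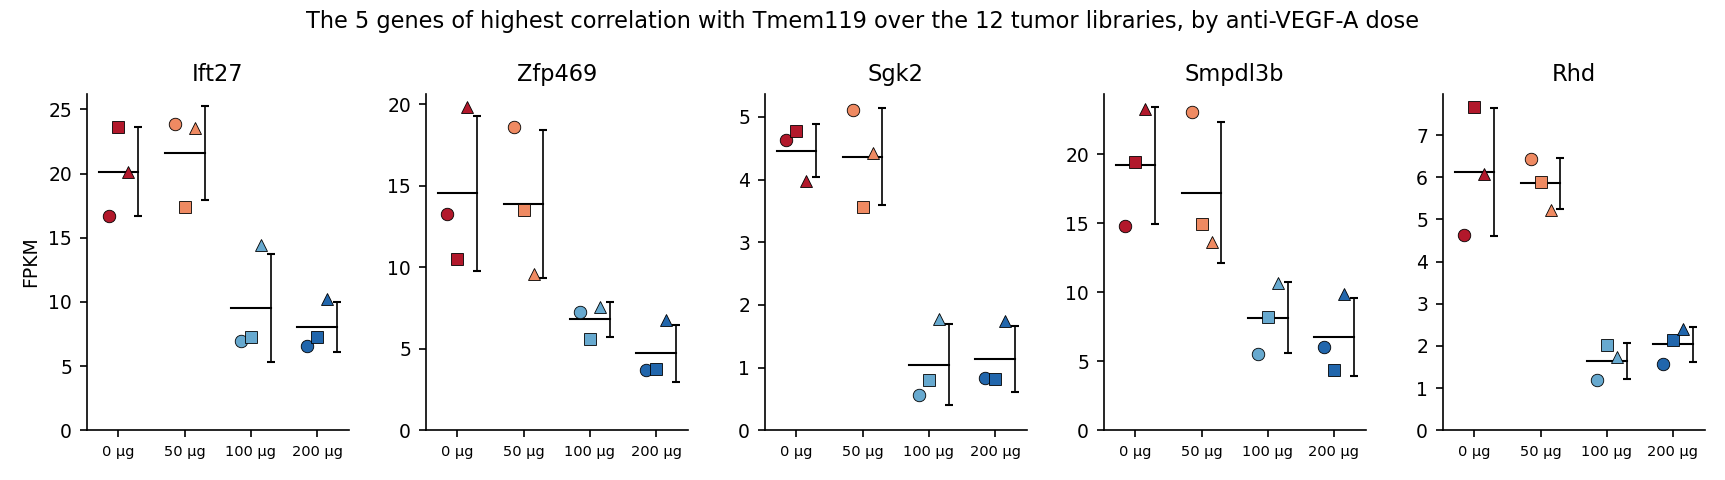
FPKM of Ift27, Zfp469, Sgk2, Smpdl3b and Rhd for tumors at 0, 50, 100 and 200 µg; symbols are libraries (circle, square and triangle for replicates 1, 2 and 3), lines are means and the bars beside them SD. In each gene all 6 libraries at 100 and 200 µg lie below all 6 at 0 and 50 µg, as they do for Tmem119, with which the genes were chosen to correlate over these libraries.

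The 5 genes closest to Olfml3 correlated less, from 0.882 for Hjurp to 0.860 for Rps6kc1, with Hmx2 (0.877), Lmnb1 (0.861) and Nfe2l3 (0.861) between them. Hjurp loads the centromeric histone and Lmnb1 forms the nuclear lamina. The log2 differences of these 5 at 200 µg were -1.69 to -0.35, given with no test because the genes were chosen on these libraries.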

How the data were processed

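The data are 15 RNA-seq libraries in 5 groups of 3, taken from the titles. STAR alignment to mm10 and Cufflinks assembly are named in the submitters' processing notes, and their versions are not given in the sources used here. What the authors deposited lists, per library, assembled transcripts with FPKM, other Cufflinks estimates such as intervals, and no counts, so total depth is unknown; coverage per FPKM gives its relative size.

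A gene's value is the sum, over transcripts on its exons (GENCODE M21, bedtools 2.31.1), of FPKM times the share of exonic length covered; single-exon transcripts under 200 bp were left out. Of 55450 genes, 24717 had a transcript. Genes averaging 1 FPKM or more in the libraries of a fit were tested with limma 3.58.1 (R 4.3.3) on log2(FPKM + 1). The fits were untreated tumor against brain over 6 libraries, and the 3 doses and a linear trend over 12 tumor libraries. The dose fit was also run on simulated data, with an outcome that is not given here. Adjusted p are Benjamini-Hochberg, over all genes tested.

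The 9 genes and the lists were chosen with earlier results of these data known. All 9 are named, with dose differences for the 6 that could be fitted. From lists of microglia, myeloid, purinergic and cathepsin genes, the 3 called genes of largest difference each way are named; other cell types are mainly given by counts. Alternatives changed the pseudocount, the filter, the summing of transcripts, the scaling, the replicate block, the grouping of the 4 libraries of discordant label and the libraries included, 1 at a time.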

Additional observations from a re-analysis of the deposited data

How the results depend on the processing

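Tmem119 kept its direction at 100 and 200 µg and in the trend under all 21 alternatives tried for each, with log2 differences of -3.66 to -2.22, -4.32 to -3.13 and -2.41 to -2.01. At 200 µg the adjusted p by limma was under 0.05 in 18 of them. At 50 µg its estimate ranged from -0.23 to 0.57 with 1 library left out and reached 1.01 with groups from the second label, uncalled throughout. Olfml3 was negative at every dose under all 21, and uncalled at 50 and 200 µg. The split of 2 genes higher and 7 lower against brain held under all 14 alternatives, with 18 of 126 values moved by more than the replicate SD. Median-of-ratios scaling shifted the median of all genes against brain to -0.07, against 0.12 as reported.

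The number of genes called depended on the processing, and the cause was not tested. The reported fits called 9836 genes against brain, 0, 12 and 432 at 50, 100 and 200 µg and 1140 in the trend. With plain sums of FPKM 4753 genes were called against brain, 4 at 50 µg, 84 at 200 µg and 366 in the trend. With transcripts of 2 or more exons 248 were called at 200 µg and 704 in the trend. At 50 µg 1 gene was called with a pseudocount of 0.1 FPKM and 1 without the filter on low values, which gave 22 at 100 µg. Without the 4 libraries of discordant label the counts at 50, 100 and 200 µg and in the trend were 1, 45, 905 and 669, and grouping by that label gave 3 at 50 µg. With 1 library left out these counts ranged over 0 to 8, 0 to 37, 24 to 1223 and 164 to 2039, lowest in the trend without replicate 1 at 200 µg and highest without replicate 3 at 50 µg. Replicate numbers did not pair the samples (correlations of same-numbered deviations of -0.079 to 0.0995), and with a replicate block 0 genes were called at 100 µg and 245 at 200 µg, while no call of the 9 genes changed.

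Some dose differences changed sign, none of them called. With transcripts of 2 or more exons P2ry12 was at -0.31, 0.62 and 0.58 at 50, 100 and 200 µg and at 0.38 in the trend; with groups from the second label at -0.27, 0.020, 0.12 and 0.13; without the 4 libraries at -0.30 at 50 µg and 0.027 in the trend. With 1 library left out its ranges were -0.23 to 0.32, -0.24 to 0.22, -0.12 to 0.055 and -0.070 to 0.011. P2ry13 was at -0.015 at 50 µg with a pseudocount of 0.1 FPKM, at -0.397, 0.031 and 0.069 at 50 and 100 µg and in the trend with groups from the second label, and at -0.425 at 50 µg without the 4 libraries. Leaving out 1 library gave -0.31 to 0.28 at 50 µg and -0.13 to 0.14 at 100 µg. Fcrls was at 0.11 at 50 µg with groups from the second label. Cst3 at 100 µg was at 0.011 with plain sums and 0.15 without the 4 libraries, where its trend was 0.014; leaving out 1 library gave -0.15 to 0.21 and, in the trend, -0.079 to 0.017. The same alternatives were applied to the other named genes after seeing the data, and none of their calls changed sign.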
